A study of Mus musculus with 200 samples.

Results

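The 8 mouse genes described here, Dazl, Sohlh2, Sycp3, Hormad1, Ddx4, Mael, Dnd1 and Ankrd31, belong to the germline and meiosis programme, and they were taken by symbol from tables that together measured 25229 genes. All 8 were present in each of the 7 tables. The tables held polyadenylated RNA of 200 libraries in 70 groups of 2 or 3 libraries, each amplified from about 10 to 100 cells by Smart-seq2, which copies whole transcripts, and expressed as TPM, transcript levels scaled by length to a common total. Most libraries were labelled epiblast (Epi), the layer that forms the embryo proper, taken from embryos around implantation that had been grown in 3D culture or dissected from decidua.

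The Epi groups were compared as follows. GSK-J4, which inhibits Kdm6a and Kdm6b, the enzymes that demethylate H3K27, was compared with control Epi at E4.5 and at E5.0, with a dose of 50 µM given for E5.0. A double knockout of Suz12 and Eed, core subunits of Polycomb repressive complex PRC2, which methylates H3K27, was compared with controls in E5.0 Epi and in E5.0 primitive endoderm (PrE), the layer that forms yolk sac endoderm. Zbtb17, a zinc finger transcription factor also known as Miz-1, was perturbed in Epi at E4.5 and, by the dTAG system that degrades a tagged protein, in Epi at E5.0. The E4.5 libraries are titled knockout and carry a dTAG treatment label. In a screen of E5.0 Epi in 10 batches, 39 knockouts made with C-CRISPR, in which several guides target each gene, were each compared with the controls of their own batch, and the knockouts of a batch share those controls. The batch 8 libraries, knockout and control, are E5.0 by their stage label and carry 6.0 in their titles. In embryoid bodies (EB), stem cell aggregates left to differentiate, 1 Zbtb17 knockout line was compared with wild type (WT) on days 0, 1, 2 and 3 with 2 libraries per group, so that the line and the knockout cannot be told apart.

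Germline genes of this kind are switched off in somatic cells around implantation. Their promoters, often rich in CpG, are bound in pluripotent cells by the variant Polycomb complex PRC1.6, whose E2F6 and MGA subunits recognise E2F and E-box motifs, and they later gain DNA methylation. Sycp3, Hormad1 and Ankrd31 encode proteins of the meiotic chromosome axis. Sohlh2 is a transcription factor of spermatogonia and oocytes. Dazl, Ddx4 and Dnd1 encode RNA-binding or RNA-remodelling proteins of germ cells, and Mael acts in transposon silencing by piRNAs.

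Promoters of 7 members were found in RefSeq tables on GRCm38.p6, each running 250 bases before to 50 bases after the start of the gene. They are shown for Sycp3, Hormad1 and Ddx4, the members holding both motifs, and for Sohlh2, which holds neither and was called higher with PRC2 loss in both lineages. Capitals mark CACGTG (the E-box, which reads the same on both strands) and GCGGGAA or its reverse complement TTCCCGC (the E2F motif), which do not overlap each other here. The windows are chr10:88459337-88459636 on the plus strand for Sycp3, chr3:95559427-95559726 on the plus strand for Hormad1, chr13:112652261-112652560 on the minus strand for Ddx4 and chr3:55181794-55182093 on the plus strand for Sohlh2.
Sycp3: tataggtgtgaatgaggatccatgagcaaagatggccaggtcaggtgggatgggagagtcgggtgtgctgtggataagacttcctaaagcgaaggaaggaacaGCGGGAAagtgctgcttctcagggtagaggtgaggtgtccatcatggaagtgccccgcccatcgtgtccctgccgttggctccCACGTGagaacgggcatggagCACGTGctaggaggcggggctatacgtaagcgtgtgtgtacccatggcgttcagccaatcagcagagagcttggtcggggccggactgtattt
Hormad1: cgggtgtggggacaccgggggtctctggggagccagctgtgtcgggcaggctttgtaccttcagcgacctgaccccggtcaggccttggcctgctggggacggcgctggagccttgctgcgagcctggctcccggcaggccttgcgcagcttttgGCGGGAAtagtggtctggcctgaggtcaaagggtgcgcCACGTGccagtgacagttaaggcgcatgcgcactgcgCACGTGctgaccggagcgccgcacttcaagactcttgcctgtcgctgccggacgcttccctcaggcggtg
Ddx4: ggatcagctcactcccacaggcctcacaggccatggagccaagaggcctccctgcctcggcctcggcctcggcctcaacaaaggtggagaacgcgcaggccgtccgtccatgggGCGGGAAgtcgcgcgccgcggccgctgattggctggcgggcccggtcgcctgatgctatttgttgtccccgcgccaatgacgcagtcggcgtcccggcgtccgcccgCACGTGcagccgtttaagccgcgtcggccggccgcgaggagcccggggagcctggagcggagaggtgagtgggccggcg
Sohlh2: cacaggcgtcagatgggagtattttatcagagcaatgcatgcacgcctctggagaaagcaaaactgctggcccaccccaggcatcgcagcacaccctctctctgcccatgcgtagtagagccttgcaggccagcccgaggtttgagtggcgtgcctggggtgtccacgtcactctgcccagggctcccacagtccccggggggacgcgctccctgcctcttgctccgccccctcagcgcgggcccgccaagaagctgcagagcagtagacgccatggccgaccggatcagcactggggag
The Sycp3 window holds E-boxes 64 and 43 bases before the start and an E2F motif 147 bases before it. In Hormad1 the E-boxes lie 57 and 20 bases and the E2F motif 95 bases before the start, and in Ddx4 these distances are 29 and 136 bases. Mael has an E-box 223 bases before its start, and neither motif was found in the windows of Sohlh2, Dazl and Ankrd31. Of 32851 promoter windows of the same length, 7.15% hold the E-box, 4.6% the E2F motif and 0.457% both. Among 98 promoters of a wider set of germline genes, 23 hold the E-box and 17 the E2F motif. The members are also rich in CpG, with 15 sites in the Sycp3 window, 17 in Sohlh2, 24 in Hormad1 and 38 in Ddx4, against a median of 7 over all windows. A match is a sequence description and shows no binding.

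On mm10 the genes lie at chr10:88459569-88473236 (Sycp3), chr3:95559677-95587671 (Hormad1), chr13:96748272-96910039 (Ankrd31), chr3:55182028-55209957 (Sohlh2), chr17:50279395-50293636 (Dazl), chr13:112598333-112652475 (Ddx4) and chr1:166201201-166238747 (Mael). Sycp3 overlaps Chpt1 on the opposite strand, and without strand the reads of the overlap cannot be told apart. Ankrd31 overlaps 2 processed pseudogenes and an rRNA gene, Gm48580, Gm48579 and Gm27792.

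Library totals were 984852 to 993453 TPM, and the sequencing depth is unknown because the tables hold no counts. Of 178 Epi libraries, 161 had a higher summed level of 14 trophectoderm and extraembryonic ectoderm markers than of 10 epiblast markers, and the Epi results below hold for libraries with these markers. Of the germ cell markers, Nanos3 reached 1 TPM in 52, Prdm14 in 23 and Prdm1 in 16 of 184 embryo libraries, with medians of 0 TPM, 0 TPM and 0.0313 TPM. The Zbtb17 E4.5 libraries listed 3986 to 4952 genes at 1 TPM or more, and 4 of them listed housekeeping genes at 0. In the screen, the mean of the targeted mRNA was lower in the libraries labelled knockout in 27 of 38 comparisons with 1 measured target, with every knockout library below every control in 14, and was not lower in 11, among them Zbtb17, Nelfb, Myc, Ascl2 and the batch 7 Bend3. Suz12 averaged 11.9 TPM in double-knockout Epi and 24.6 TPM in control Epi, and 15.1 TPM in double-knockout PrE and 29.4 TPM in control PrE. Nothing in the labels says what separates the libraries of a group, so p-values measure a spread that may be technical. The 2 libraries of each EB group correlated at 0.993 to 0.995 over all genes, about as closely as a PrE control pair (0.9955) that was counted as 1 library. Each EB test used the scatter inside such pairs and may therefore measure technical error alone.

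In control E5.0 Epi, Hormad1 and Sycp3 were the most abundant members per unit of length. Over 13 control groups the median of group means was 26.0 TPM for Hormad1, 10.4 TPM for Sycp3, 8.96 TPM for Mael, 7.80 TPM for Dnd1, 5.28 TPM for Dazl, 3.88 TPM for Ddx4, 3.16 TPM for Sohlh2 and 1.11 TPM for Ankrd31. The ranges of neighbours in this order overlapped, for example 7.88 to 79.4 TPM for Hormad1 and 1.19 to 23.6 TPM for Sycp3. The batch 8 controls held the highest means of 5 members, with 59.8 TPM of Dazl, 71.7 TPM of Sohlh2, 48.7 TPM of Mael, 49.0 TPM of Dnd1 and 15.3 TPM of Ddx4. These controls are E5.0 by their stage label but carry a later stage in their titles. Without batch 8 the highest means were 11.3 TPM of Dazl and 6.61 TPM of Sohlh2. Over all 70 groups, Sycp3 averaged 10 TPM or more in 42, Hormad1 in 60, Mael in 30, Dnd1 in 20, Dazl in 14, Sohlh2 and Ddx4 in 5 each, and Ankrd31 in 3.

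Member calls at E5.0 went in both directions, and the share of all genes called is given beside each count. Tests used limma on log2(TPM + 1) over all genes, with Benjamini-Hochberg adjusted p under 0.05 within each comparison, so that log2 differences below are on this scale and understate changes of low genes. With GSK-J4 at E5.0, 1 of 7 tested members rose and 2 fell, against 28.3% of all genes called. In the Suz12 Eed double knockout, 3 of 8 members passed in Epi (9.13% of genes) and 2 of 6 in PrE (26.6%). Between control PrE and control Epi 7 of 8 differed (56.4% of genes), and 2 of 8 rose with Zbtb17 dTAG, where 7.2% of genes were higher and 11.7% called in all. In the screen 39 of 294 tested member and knockout pairs passed, 22 higher and 17 lower, in 22 knockouts, a share of 13.3% against 10.1% of all gene and knockout pairs (5.04% higher and 5.1% lower).

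Several comparisons gave no call among the members in limma. At E4.5, GSK-J4 called 0 of 6 (1.15% of genes), with 0 at an unadjusted p under 0.05, beside 1200 of 9982 genes. Zbtb17 at E4.5 called 0 of 3 (0.131%), with 2 at an unadjusted p under 0.05, beside 370 of 4576 genes. The test of whether the Suz12 Eed effect differed between Epi and PrE called 0 of 8 (19.1%). Here 2 members were at an unadjusted p under 0.05, beside 4361 of 13172 genes.

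Sycp3, a lateral element protein of the synaptonemal complex, was the member with the widest range of levels, and its highest levels were in PrE. Control PrE held 649, 605 and 745 TPM, against 14.7, 15.2 and 20.5 TPM in control Epi. Every PrE library lay far above every Epi library, with a log2 difference of 5.28 ± 0.22 (SE, adjusted p = 1.6e-10); the 649 and 605 TPM libraries were nearly identical over all genes and counted as 1. In bulk samples, a change in the number of cells of a type and in RNA per cell cannot be told apart. Chpt1 also differed, with 26.2, 18.5 and 28.3 TPM in control PrE against 2.51, 5.43 and 1.78 TPM in control Epi, far below the Sycp3 level.

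GSK-J4 raised Sycp3 in E5.0 Epi, with 89.0, 35.3 and 75.2 TPM in treated libraries, against 12.0, 6.82 and 9.92 TPM in controls. The groups did not overlap, the log2 difference was 2.60 ± 0.39 (SE, adjusted p = 0.0023), and the means differed 6.94-fold. The summed level of 17 PrE markers also moved, with 1520 to 1731 TPM and 16 markers at 1 TPM or more in treated libraries, against 20.4 to 29.5 TPM and 7 or 8 markers in controls. In the libraries labelled Ezh2 KO the PrE marker sum was 1652 to 1698 TPM, with 13 or 14 markers at 1 TPM or more. Their controls summed to 45.7 to 62.3 TPM, with 6 or 8 such markers. Sycp3 held 14.8, 12.9 and 10.2 TPM in Ezh2 KO against 21.9, 4.33 and 16.7 TPM in controls (log2 difference 0.06, adjusted p = 0.94). A like sum need not hold the same markers, and the part of PrE markers in the Sycp3 levels was not tested.

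All E5.0 Zbtb17 perturbations of embryos had higher Sycp3. The libraries labelled Zbtb17 KO in batch 6 held 191, 167 and 153 TPM, against 12.0, 7.73 and 8.31 TPM in their controls, 18.2-fold higher by means and with no overlap (log2 difference 4.07 ± 0.47 SE, adjusted p = 6e-12). There the PrE marker sum overlapped between groups, at 232 to 460 TPM in Zbtb17 KO and 284 to 332 TPM in controls. The sum of trophectoderm and extraembryonic ectoderm markers was 9312 to 12790 TPM in Zbtb17 KO and 3459 to 4252 TPM in controls, and its part was not tested. Zbtb17 mRNA itself averaged 6.93 TPM in these libraries and 2.65 TPM in controls, so the knockout is not visible at the RNA level. The batch 6 Zbtb17 KO libraries listed 7447 to 9225 genes at 1 TPM or more, against 9982 to 10434 in controls. Their 10 highest genes took 10.1% to 12.4% of TPM, against 7.63% to 8.65% in controls. Replicates correlated at 0.830 to 0.871 in Zbtb17 KO and 0.954 to 0.959 in controls. The part of these differences was not tested. With dTAG, Sycp3 held 25.6, 34.9 and 32.1 TPM, against 7.06, 7.08 and 8.56 TPM in controls, again without overlap (log2 difference 1.89 ± 0.28 SE, adjusted p = 0.0017, 4.08-fold). The PrE marker sum was 249 to 292 TPM with dTAG and 33.4 to 40.0 TPM in controls, and its part was not tested. At E4.5 Sycp3 was listed at 29.8, 29.7 and 0 TPM in perturbed libraries and at 2.14, 0 and 0 TPM in controls, which did not pass (adjusted p = 0.74).

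Of 39 knockouts in the screen, Sycp3 rose in 7, Zbtb17 included, and fell in 1. The other rises were with Gtf2b (a general transcription initiation factor), Nelfb (a subunit of the pausing factor NELF), Ets2 (a trophoblast transcription factor), Hdac1 Hdac3 double KO, Ssrp1 (a FACT histone chaperone subunit) and Chd4 (the NuRD remodeller). Gtf2b KO libraries held 52.7, 74.4 and 61.2 TPM, against 5.28, 8.37 and 8.58 TPM in batch 10 controls, with a difference of 2.93 on the log2 scale (SE 0.47, adjusted p = 4.1e-07). Nelfb KO libraries held 147, 55.1 and 121 TPM, against 17.5, 25.8 and 9.69 TPM in controls (2.53 ± 0.47, adjusted p = 1.1e-05). In neither did the groups overlap, and the PrE marker sum was higher in both, at 237 to 280 TPM in Gtf2b KO against 29.3 to 39.3 TPM in controls and 867 to 897 TPM in Nelfb KO against 116 to 134 TPM in controls. Its part was not tested.

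The remaining rises of Sycp3 were 2.27 for Ets2, 2.20 for Hdac1 Hdac3, 1.69 for Ssrp1 and 1.47 for Chd4 on the log2 scale. The calls for Ssrp1 and Chd4 were lost when a replicate number was left out across groups. The mRNA of these 2 targets was at 97.8% and 99.0% of control. PrE markers summed higher in all 4, to 723 to 896 TPM in Ets2 KO against 129 to 140 TPM in batch 2 controls, and to 387 to 424 TPM in Ssrp1 KO against 116 to 134 TPM in batch 1 controls. In Hdac1 Hdac3 double KO they summed to 207 to 224 TPM and in Chd4 KO to 406 to 450 TPM, against 29.3 to 39.3 TPM in batch 10 controls. The PrE sum thus stood above all controls in 6 of the 7 knockouts with higher Sycp3, Zbtb17 being the exception, and in 21 of all 39. The sum of trophectoderm and extraembryonic ectoderm markers did so in 7 of the 7 and in 27 of all 39. The part of either was not tested. Elf5, a trophoblast transcription factor, was the knockout with a fall: its libraries held 15.2, 0.472 and 0.896 TPM, against 24.5, 17.1 and 29.2 TPM in controls (log2 difference -2.75, adjusted p = 1.8e-06). One Elf5 KO library lay close to the controls and the other two far below them. Elf5 KO libraries also stood apart in marker sums: epiblast markers summed to 1914 to 1961 TPM against 970 to 1004 TPM in controls, PrE markers to 246 to 307 TPM against 129 to 140 TPM, and 10 primordial germ cell markers to 18734 to 19231 TPM against 6485 to 6666 TPM. Of these 10 markers, 6 or 7 reached 1 TPM in Elf5 KO libraries and 5 or 6 in controls, so the sum rests on a few abundant genes. The part of the marker sums in this and the other Elf5 differences below was not tested.

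PRC2 loss lowered Sycp3 in PrE, where it was most abundant. Double-knockout PrE held 392, 439 and 364 TPM, against 649, 605 and 745 TPM in control PrE (log2 difference -0.78 ± 0.22 SE, adjusted p = 0.018). Double-knockout Epi held 8.23, 13.5 and 9.12 TPM against 14.7, 15.2 and 20.5 TPM in control Epi (-0.67 ± 0.20, adjusted p = 0.048). Neither pair overlapped, and the Epi call was lost in 9 of 11 alternative settings, the PrE call in 2 of 11.

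**Figure D1:**
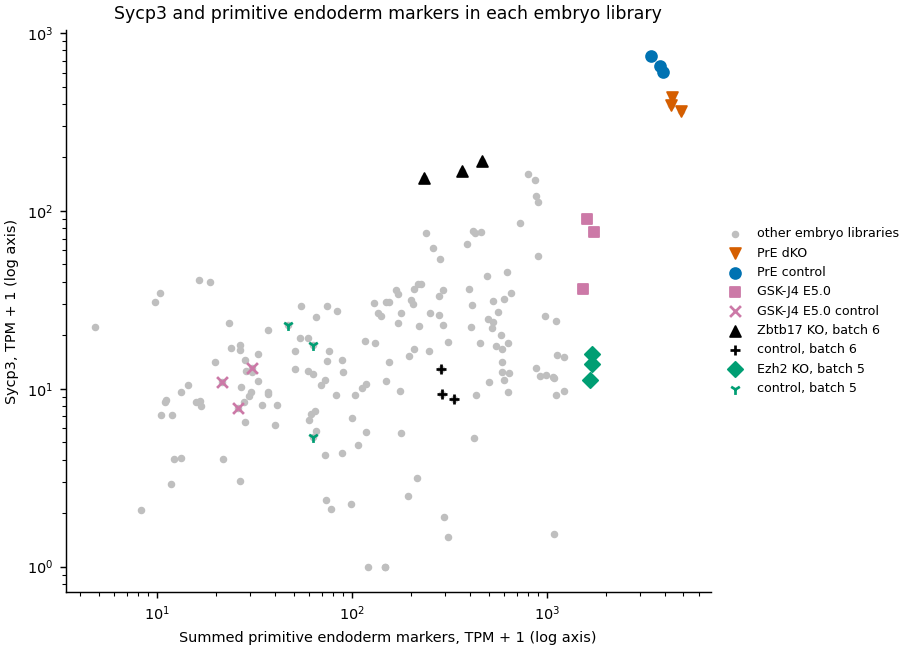
Sycp3 (TPM + 1, log axis) against the summed level of 17 primitive endoderm markers (TPM + 1, log axis), 1 point per embryo library, with perturbed groups and their controls in colour. Zbtb17 KO libraries of batch 6 have high Sycp3 at the marker sum of their controls, and Ezh2 KO libraries have the marker sum of GSK-J4 libraries without their Sycp3.

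Hormad1, a HORMA domain protein of unsynapsed axes, went the opposite way to Sycp3 between lineages. It stood at 5.16, 3.83 and 0 TPM in control PrE, against 58.8, 59.5 and 51.4 TPM in control Epi. All PrE libraries were below all Epi libraries (log2 difference -4.62 ± 0.49 SE, adjusted p = 1.7e-06). GSK-J4 lowered it in E5.0 Epi, to 21.2, 19.3 and 16.6 TPM in treated libraries, against 47.2, 36.1 and 42.3 TPM in controls. This difference of -1.10 ± 0.22 on the log2 scale (adjusted p = 0.0085, no overlap) did not pass without control replicate 1 or 3, with adjusted p of at most 0.057. The PrE marker sum given for Sycp3 moved with it, and its part was not tested.

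Zbtb17 dTAG raised Hormad1, with 57.8, 63.2 and 45.7 TPM against 30.0, 20.3 and 19.9 TPM in controls (log2 difference 1.23 ± 0.23 SE, adjusted p = 0.0073, no overlap). At E4.5 it was listed at 16.5, 20.6 and 29.9 TPM in Zbtb17-perturbed libraries and at 0 in the 3 controls, but did not pass over all genes (adjusted p = 0.20). In the libraries labelled Zbtb17 KO of batch 6 its log2 difference was -0.83 ± 0.53 (SE, adjusted p = 0.24).

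In the screen Hormad1 rose in 4 labelled knockouts and fell in 3. The libraries labelled Myc KO held 125, 121 and 152 TPM, against 18.0, 25.7 and 22.4 TPM in batch 4 controls, with every library far above the controls (log2 difference 2.54 ± 0.53 SE, adjusted p = 0.00019). Myc, a partner of Zbtb17 and of MAX, was not lower in these libraries, at 145 TPM against 56.6 TPM in controls. Hormad1 was also higher with Tfap2c KO at 82.0, 86.2 and 85.4 TPM against the same controls (1.91, adjusted p = 0.0066). It was higher with Nelfb KO too, at 121, 139 and 105 TPM against 28.2, 33.2 and 32.1 TPM in controls (1.93, adjusted p = 0.0037). Tfap2c is a transcription factor of trophoblast and primordial germ cells. The groups did not overlap in any of these. Epiblast markers summed to 1079 to 1224 TPM in Myc KO and 1600 to 1720 TPM in Tfap2c KO, against 705 to 764 TPM in batch 4 controls. Trophectoderm and extraembryonic ectoderm markers summed to 6493 to 6999 TPM in Myc KO and 2562 to 2644 TPM in Tfap2c KO, against 3141 to 3419 TPM in these controls. PrE markers were lower in Tfap2c KO, at 9.40 to 10.0 TPM against 63.7 to 74.9 TPM. The epiblast sum stood above all controls in 4 of the 4 knockouts with higher Hormad1 and in 10 of all 39, and the part of these markers was not tested.

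Screen libraries labelled Suz12 KO had lower Hormad1, at 20.1, 20.3 and 5.45 TPM, against 75.2, 88.6 and 74.5 TPM in batch 2 controls (log2 difference -2.49 ± 0.53 SE, adjusted p = 0.0001, no overlap). The Polycomb knockouts Ezh2 and Jarid2 gave no call for Hormad1. Ezh2 KO held 6.81, 36.6 and 78.5 TPM against 18.1, 10.2 and 17.4 TPM in its controls. Jarid2 KO held 17.2, 27.5 and 20.4 TPM against 18.8, 17.3 and 13.9 TPM in its controls. In the Suz12 Eed double knockout of Epi the values were 39.9, 37.6 and 47.7 TPM, against 58.8, 59.5 and 51.4 TPM in control Epi, lower in each library but not past the threshold (-0.43, adjusted p = 0.58). Otx2 KO, which targets an epiblast transcription factor, gave 4.28, 3.35 and 5.73 TPM against 18.0, 25.7 and 22.4 TPM in controls (-2.09, adjusted p = 0.0059). The call for Otx2 was lost in 3 of 13 settings and that for Suz12 in none.

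Ankrd31, which recruits the meiotic double-strand break machinery to the axis, was low in most embryo groups. It was lower with Ezh2 KO, at 0.218, 0 and 0.123 TPM against 1.08, 1.59 and 4.22 TPM in controls (log2 difference -1.45 ± 0.34 SE, adjusted p = 0.0006). It was also lower with Sox4 KO, at 0.457, 0.599 and 0.951 TPM against 3.94, 2.96 and 3.80 TPM in controls (-1.46, adjusted p = 0.0078). The groups did not overlap in either, although all these levels are close to the filter of 1 TPM. Control PrE held 1.90, 1.40 and 5.31 TPM, against 1.27, 1.43 and 0.424 TPM in control Epi, which overlapped (1.04, adjusted p = 0.0498, lost in 8 of 11 settings).

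Sohlh2 was the 1 member of 8 that was called higher with PRC2 loss in both lineages. In double-knockout Epi it held 24.7, 38.6 and 23.8 TPM, against 3.54, 6.22 and 1.66 TPM in control Epi. The groups were far apart, 7.64-fold by means, with a log2 difference of 2.73 ± 0.39 (SE, adjusted p = 0.00047). In double-knockout PrE it held 5.83, 2.75 and 3.05 TPM and in the 3 control PrE libraries 0 TPM (adjusted p = 0.0018). The rise did not differ measurably between lineages (Epi minus PrE 0.50 ± 0.58 on the log2 scale, adjusted p = 0.59).

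The Suz12 KO of the screen gave the same direction for Sohlh2, at 22.8, 11.2 and 25.4 TPM, against 1.95, 2.47 and 2.52 TPM in batch 2 controls (log2 difference 2.58 ± 0.68 SE, adjusted p = 0.0021, 8.56-fold, no overlap). This rise did not pass with a pseudocount of 0.1 (adjusted p = 0.12). The sum of trophectoderm and extraembryonic ectoderm markers was also higher with PRC2 loss, at 5176 to 6159 TPM in double-knockout Epi against 1595 to 1726 TPM in control Epi, and at 12950 to 13470 TPM with Suz12 KO against 3981 to 4221 TPM. Its part was not tested. Other Polycomb knockouts did not pass: the log2 difference was 1.18 for Rnf2 (adjusted p = 0.82), 1.00 for Jarid2 (adjusted p = 0.89) and -0.38 for Ezh2 (adjusted p = 0.73).

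GSK-J4, which inhibits Kdm6a and Kdm6b, lowered Sohlh2 at E5.0. Treated E5.0 Epi held 0, 0.0598 and 0 TPM, against 8.41, 4.19 and 3.76 TPM in control Epi, at or near 0 in each treated library (log2 difference -2.59 ± 0.41 SE, adjusted p = 0.0031). The higher PrE marker sum of these libraries stands beside this fall too, and its part was not tested. Knockout of neither Kdm6a nor Kdm6b gave a Sohlh2 call in the screen. Kdm6a KO held 8.33, 1.87 and 7.03 TPM against 0.738, 3.53 and 0.408 TPM in controls. Kdm6b KO held 0.099, 0 and 0 TPM against 0, 3.97 and 5.51 TPM in controls. At E4.5 the values were 0.118, 2.35 and 3.07 TPM with GSK-J4 and 0 in the 3 control libraries, below the filter and not tested. Tfap2c KO was the other screen knockout with a rise, at 15.3, 7.05 and 8.82 TPM against 0.738, 3.53 and 0.408 TPM in controls (2.29, adjusted p = 0.012), lost in 4 of 13 settings.

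**Figure D2:**
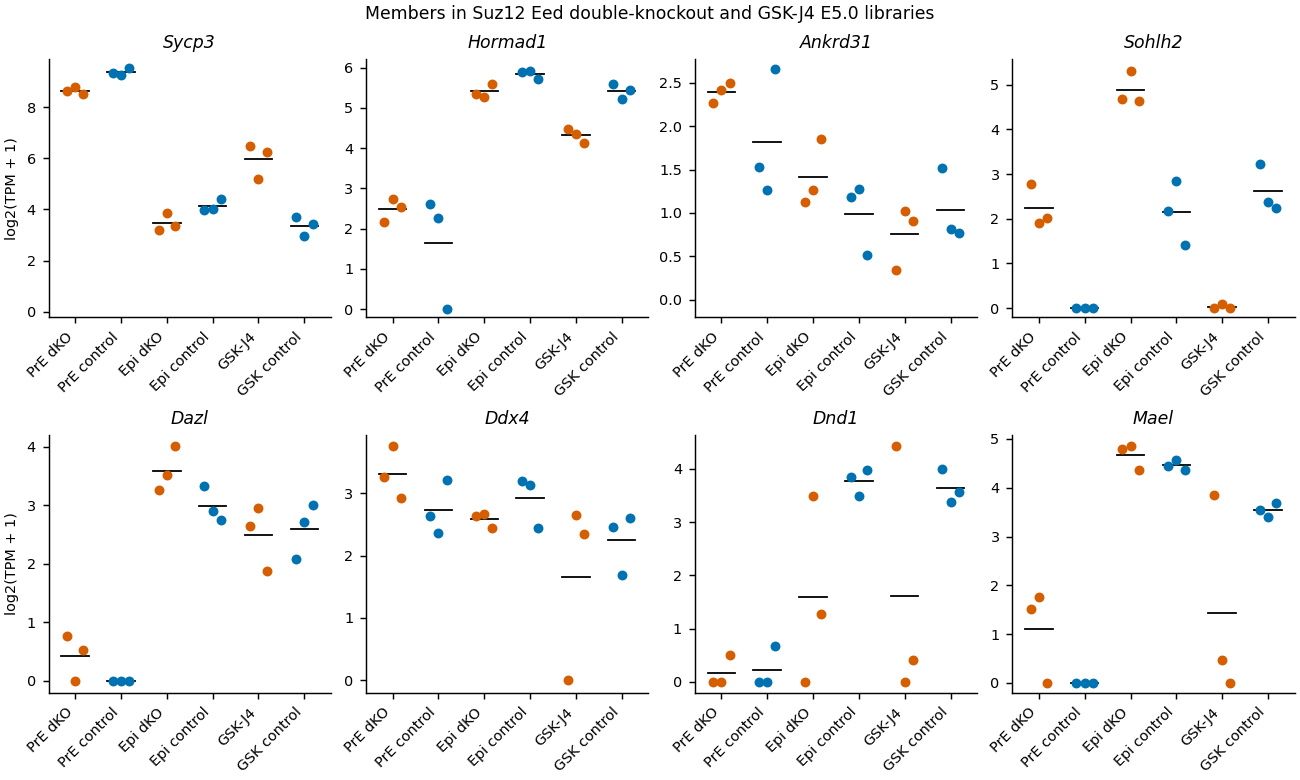
Level of each member, log2(TPM + 1), in every library of Suz12 Eed double-knockout (dKO) and control PrE, dKO and control Epi, and GSK-J4-treated and control E5.0 Epi, with bars at the mean of the plotted libraries. Sohlh2 lies above its controls in both dKO groups and at or near 0 with GSK-J4, while Sycp3 is highest in PrE.

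Dazl, which promotes translation of germ cell mRNAs, was at 0 TPM in the 3 control PrE libraries, against 9.06, 6.50 and 5.69 TPM in control Epi (adjusted p = 1.1e-05). PRC2 loss left Dazl below the filter in PrE and not called in Epi, at 8.55, 10.5 and 15.1 TPM in double-knockout Epi (log2 difference 0.60 ± 0.34 SE, adjusted p = 0.29). With GSK-J4 at E5.0 the difference was -0.11 ± 0.46 (adjusted p = 0.89). Elf5 KO, whose marker sums are given with Sycp3, raised it, with 8.61, 33.6 and 21.9 TPM against 1.35, 3.85 and 2.68 TPM in batch 2 controls and no overlap (2.50 ± 0.60, adjusted p = 0.00074). Mcrs1 KO did so too, with 10.7, 10.0 and 15.8 TPM against the same controls (1.90, adjusted p = 0.017, lost in 4 of 13 settings). Controls of 1 batch could vary widely, with 0.457, 30.1 and 3.49 TPM in batch 5.

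Mael shared the PrE pattern, with 0 TPM in the 3 control PrE libraries, against 20.8, 22.7 and 19.5 TPM in control Epi (adjusted p = 9.3e-07). All 5 rises of Mael in the screen were in batch 2, whose 3 controls held 2.88, 2.86 and 0 TPM and serve all of them. Suz12 KO held 33.1, 22.1 and 27.6 TPM (log2 difference 3.52 ± 0.69 SE, adjusted p = 3e-05), far above these controls, while double-knockout Epi held 26.8, 27.8 and 19.6 TPM against the 20.8, 22.7 and 19.5 TPM above (0.21, adjusted p = 0.79). The other rises, by labelled knockout, were 3.10 for Ascl2, 2.77 for Elf5, 2.31 for Lmo2 and 1.93 for Ets2 on the log2 scale. The calls for all 4 were lost when batch 2 was fitted alone. Ascl2 mRNA went against its label, at 29.0 TPM in the libraries labelled Ascl2 KO and 6.35 TPM in controls. The PrE marker sum stood above all controls in 5 of these 5 knockouts, and its part was not tested.

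Mael fell in 4 knockouts. Kdm6b KO, which removes an H3K27 demethylase, held 4.72, 0.458 and 0.325 TPM, against 5.87, 17.5 and 16.6 TPM in controls (log2 difference -2.55, adjusted p = 0.0033). In Zbtb17 KO of batch 6 it was at 2.91, 0 and 0 TPM against 10.2, 6.86 and 4.67 TPM in controls (-2.33, adjusted p = 0.0061). Neither overlapped, and both calls were lost without perturbed replicate 2. The lower gene counts of the Zbtb17 KO libraries are given with Sycp3, and their part was not tested. With GSK-J4 the values were 13.5, 0.379 and 0 TPM against 10.6, 9.49 and 11.9 TPM in control Epi, where 1 treated library stood above the controls (-2.10, adjusted p = 0.15).

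Dnd1, which guards germ cell mRNAs from microRNAs, was also nearly absent from PrE, at 0, 0 and 0.607 TPM in control PrE against 13.4, 10.2 and 14.7 TPM in control Epi (log2 difference -3.43 ± 0.69 SE, adjusted p = 0.00069). It varied within groups: double-knockout Epi held 0, 10.2 and 1.43 TPM, which passed (-2.18, adjusted p = 0.040) and did not pass in 9 of 11 settings. GSK-J4 Epi at E5.0 held 20.4, 0 and 0.325 TPM against 14.9, 9.37 and 10.8 TPM in control Epi. In the screen its single call was a fall with Zfp57 KO, at 1.07, 0 and 2.30 TPM against 9.77, 4.19 and 17.5 TPM in controls (-2.41, adjusted p = 0.028, lost in 5 of 13 settings).

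Ddx4, the RNA helicase of germ granules, was the only member without a call between lineages, at 5.20, 4.13 and 8.25 TPM in control PrE against 8.16, 7.81 and 4.44 TPM in control Epi (log2 difference -0.07, adjusted p = 0.88). All 3 screen calls were falls in batch 2. Elf5 KO was at 0 TPM in its 3 libraries, against 3.92, 9.13 and 4.32 TPM in controls (adjusted p = 0.00073). Mcrs1 and Ets2 KO gave -1.85 (adjusted p = 0.033) and -1.68 (adjusted p = 0.045) on the log2 scale and were lost in 5 and 7 of 13 settings. Elf5 KO thus called 4 of 8 members, with 25% of its genes called.

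Bend3, a BEN domain repressor that binds CpG islands, was knocked out in 2 batches, and Dazl and Hormad1 moved in opposite directions in them. In batch 8, Sohlh2 held 1.47, 0.962 and 0.824 TPM in the libraries labelled Bend3 KO, against 61.9, 76.2 and 77.1 TPM in controls (log2 difference -5.13 ± 0.68 SE, adjusted p = 1e-09). Dazl held 2.69, 1.20 and 0.912 TPM in these KO libraries against 55.5, 52.3 and 71.6 TPM in controls (-4.59 ± 0.60, adjusted p = 6.9e-10). In that batch 4 of 8 members fell and 1 rose, with 28.6% of genes called.

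The other falls in batch 8 were Mael, with 6.70, 11.1 and 5.39 TPM in Bend3 KO against 85.7, 23.9 and 36.3 TPM in controls, and Hormad1, with 9.27, 4.74 and 4.74 TPM in Bend3 KO against 21.9, 31.0 and 25.0 TPM in controls. Ankrd31 rose, with 6.77, 4.05 and 4.76 TPM in Bend3 KO against 0.812, 1.58 and 0.293 TPM in controls (log2 difference 1.74 ± 0.34 SE, adjusted p = 2.9e-05). Bend3 mRNA averaged 10.3 TPM in these libraries and 32.0 TPM in their controls. Primordial germ cell markers summed to 896 to 1208 TPM in batch 8 Bend3 KO and 2140 to 2848 TPM in controls, and their part was not tested. The number of these markers at 1 TPM or more was 5 in each Bend3 KO library and 5 or 6 in controls.

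In batch 7 the direction was up, in libraries that stood apart from the rest of the screen. The 10 highest genes took 34.8% to 36.6% of TPM in Bend3 KO and 24.1% to 27.1% in controls, against 5.89% to 12.4% in the other 143 screen libraries. Genes at 1 TPM or more numbered 7236 to 7905 in Bend3 KO and 8331 to 8383 in controls. The part of these differences in the calls was not tested. Hormad1 held 41.0, 37.0 and 37.4 TPM in the libraries labelled Bend3 KO, against 0 and 15.8 TPM in the 2 controls (log2 difference 3.27 ± 0.59 SE, adjusted p = 3.7e-06). Dazl held 37.4, 8.70 and 35.3 TPM in KO libraries against 0.0637 and 8.17 TPM in controls (2.93 ± 0.67, adjusted p = 0.00023). These were 2 of 6 tested members, with 38.8% of genes called. The groups do not overlap, the 2 controls lie far apart, and both calls were lost without control replicate 1 (adjusted p up to 0.42 for Dazl and 0.32 for Hormad1).

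The 2 Bend3 effects differed in 5 of 8 members by an interaction test added after the data were seen, with 31.2% of genes called, by -7.53 for Dazl and -6.72 for Sohlh2 on the log2 scale. The controls themselves differed between batches. Trophectoderm and extraembryonic ectoderm markers summed to 369 to 551 TPM in batch 8 controls and 3898 to 4976 TPM in batch 7 controls. Epiblast markers summed to 3136 to 3418 TPM in batch 8 controls and 1455 to 1579 TPM in batch 7 controls. Bend3 mRNA was 12.4 TPM in batch 7 libraries labelled KO and 4.87 TPM in their controls. Batch 8 also carries a later stage in its titles than batch 7, although the stage labels are the same. Batch and titled stage therefore cannot be told apart here. The part of the batch, of the titled stage and of the controls in the opposite directions was not tested.

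Rnf2 KO, which targets the catalytic subunit of PRC1, showed differences whose calls depended on the spread used. In the fit of the whole screen 1 of 8 members passed, with 1.88% of genes called: Ankrd31, at 2.52, 2.44 and 2.26 TPM in Rnf2 KO against 5.78, 8.38 and 6.71 TPM in controls (log2 difference -1.21, adjusted p = 0.038, lost in 8 of 13 settings). In a fit of batch 3 alone, which holds other knockouts too, 5 of 8 members passed, 4 higher and 1 lower, with 15.3% of genes called. Dazl passed at 12.9, 13.7 and 12.2 TPM in Rnf2 KO against 3.16, 4.44 and 4.86 TPM in controls (1.45, adjusted p = 0.00044), whereas in the whole screen its adjusted p was 0.38. Sycp3 passed in the same way, at 22.8, 23.6 and 26.0 TPM in Rnf2 KO against 11.5, 8.65 and 11.2 TPM in controls (1.14, adjusted p = 0.0011 alone and 0.38 in the screen). Mael was at 9.41, 10.5 and 10.98 TPM in Rnf2 KO against 0.741, 2.16 and 5.45 TPM in controls (1.78, adjusted p = 0.013 alone and 0.30 in the screen). Ddx4 was at 7.66, 7.98 and 9.50 TPM in Rnf2 KO against 3.86, 3.20 and 2.19 TPM in controls (1.22, adjusted p = 0.010 alone and 0.71 in the screen). The groups did not overlap for these 4 genes, with no share over all genes to set beside this. The fall was that of Dnd1, at 1.51, 2.56 and 1.06 TPM in Rnf2 KO against 2.14, 7.17 and 11.7 TPM in controls, which overlapped (-1.38, adjusted p = 0.012 alone and 0.84 in the screen). Such dependence was not particular to Rnf2 KO. Hormad1 held 123, 162 and 130 TPM in Zfp281 KO against 51.4, 33.7 and 42.5 TPM in batch 9 controls. The log2 difference was 1.69 (adjusted p = 6.2e-06 with batch 9 alone and 0.086 in the screen, with 8.66% and 1.64% of genes called). Sycp3 and Ddx4 fell in Zfp281 KO and passed only with batch 9 alone. Members in Mbd3, Fos, Smad2 and other knockouts also passed only with their batch alone.

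**Figure D3:**
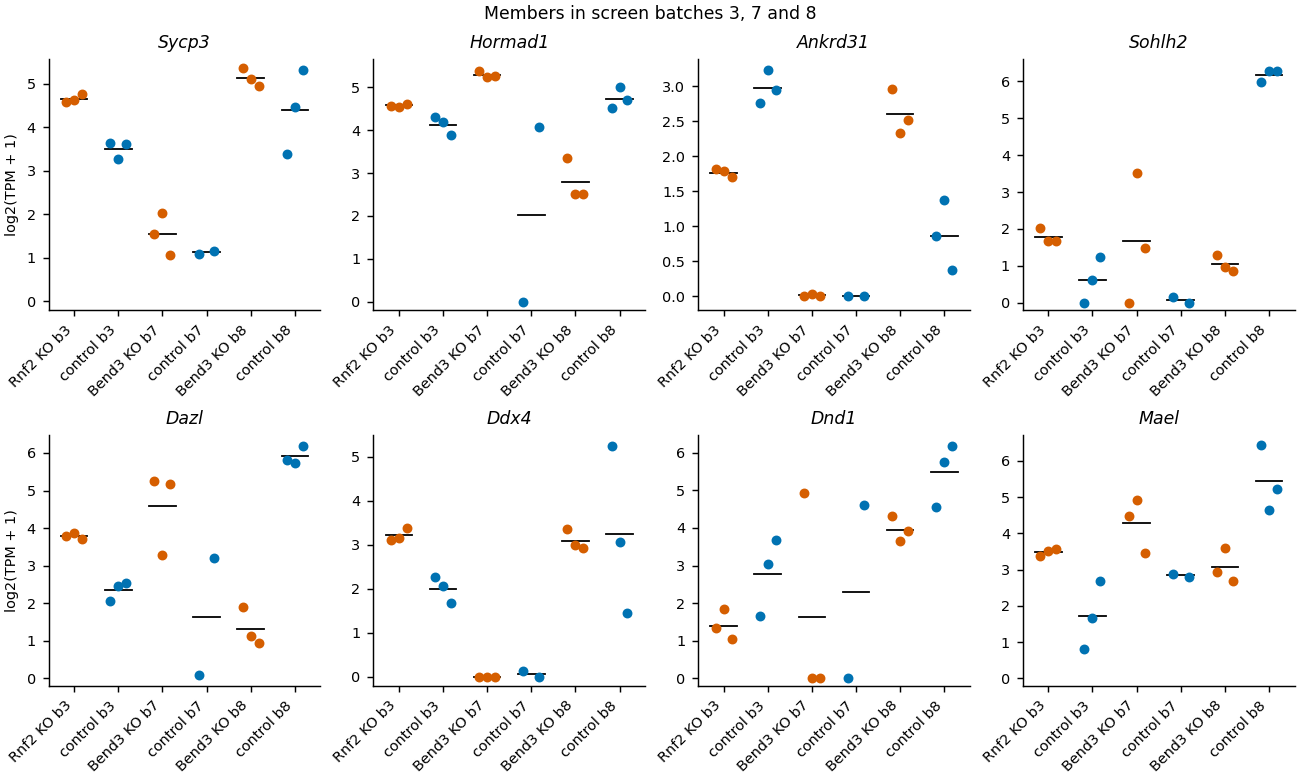
Level of each member, log2(TPM + 1), in every library labelled Rnf2 KO and its batch 3 controls, and Bend3 KO and controls of batches 7 and 8, with bars at the mean. Dazl and Sohlh2 are high in batch 8 controls and low in Bend3 KO of that batch, while Dazl and Hormad1 are higher in Bend3 KO than in the 2 controls of batch 7.

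In WT EB the levels of most members changed from day to day. Dazl held 12.6 and 10.8 TPM on day 1 and 0.691 and 0.540 TPM on day 3, and Hormad1 22.8 and 25.8 TPM on day 1 and 0 and 0.455 TPM on day 3. Sycp3 went the other way, with 6.81 and 6.78 TPM on day 2 against 0.865 and 0.999 TPM on day 1 (log2 difference 2.01 ± 0.18 SE, adjusted p = 1.6e-06). Of 23 tested member and step pairs 18 passed, 10 higher and 8 lower. Of all gene and step pairs 65.5% were called, 45.1% higher and 20.4% lower. From day 0 to day 1, 91.4% of genes were called higher. Day 0 libraries stood apart, with 5970 to 6983 genes at 1 TPM or more, and rises between days 0 and 1 move with that difference: those of Dazl and Hormad1 turned negative under quantile normalization.

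The Zbtb17 knockout line differed from WT most in Ankrd31. It held 0.579 and 0.383 TPM on day 1, against 19.8 and 20.1 TPM in WT. On day 2 it held 0.297 and 0.577 TPM against 13.4 and 12.8 TPM in WT, and on day 3 0.313 and 0.143 TPM against 18.5 and 16.2 TPM in WT. The knockout line stayed below 1 TPM while WT stayed above 10, with log2 differences of -3.83, -3.30 and -3.90 (SE 0.12 each, adjusted p = 1e-09, 1.4e-09 and 1.5e-10). No alternative lost these calls. Of the genes near Ankrd31, Fam169a was also lower in the knockout line on days 1 and 2 (-0.85 and -0.59 on the log2 scale, adjusted p = 4.6e-05 and 0.00047), and Gcnt4 was higher on day 2 (0.71, adjusted p = 0.0019). In embryos Zbtb17 dTAG left Ankrd31 at 4.23, 5.67 and 3.46 TPM against 6.34, 4.82 and 5.02 TPM in controls (-0.24, adjusted p = 0.77).

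Of 27 tested member and day pairs 15 passed, 11 higher and 4 lower in the knockout line. Of all gene and day pairs 46.9% were called, 22.7% higher and 24.3% lower. The 11 were Hormad1 on days 0 to 3, Dazl on days 0, 1 and 3, Sohlh2 on days 1 and 3 and Sycp3 on days 0 and 1. The 4 were Ankrd31 on days 1 to 3 and Ddx4 on day 2. On day 0, 47.8% of all genes were higher in the knockout line. Its day 0 libraries listed 6966 to 6983 genes at 1 TPM or more, against 5970 to 5986 in WT. Hormad1 held 8.43 and 7.92 TPM against 3.21 and 3.29 TPM in WT on day 2, and 4.20 and 4.92 TPM against 0 and 0.455 TPM in WT on day 3, without overlap (log2 differences 1.11 and 2.20, adjusted p = 8.5e-05 and 1.6e-07). Dazl held 2.48 and 2.22 TPM against 0.691 and 0.540 TPM in WT on day 3 (1.05 ± 0.15 SE, adjusted p = 8.9e-05), and Sohlh2 2.33 and 2.03 TPM against 0.755 and 0.753 TPM in WT (0.86 ± 0.13, adjusted p = 0.00014). Ddx4 averaged 10.4 TPM in the knockout line and 14.8 TPM in WT on day 2 (-0.47, adjusted p = 0.0067). Sycp3 held 6.77 and 5.59 TPM in the knockout line against 5.09 and 8.01 TPM in WT on day 3 and overlapped. The difference from WT changed between day 1 and a later day in 7 of 16 member and day pairs (29.4% of gene and day pairs), most for Hormad1, by 1.66 on the log2 scale on day 3 (adjusted p = 5.9e-05). Zbtb17 mRNA averaged 10.0 TPM in the knockout line and 22.1 TPM in WT on day 1, 13.4 TPM in the knockout line and 21.9 TPM in WT on day 2, and 13.5 TPM in the knockout line and 17.7 TPM in WT on day 3.

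**Figure D4:**
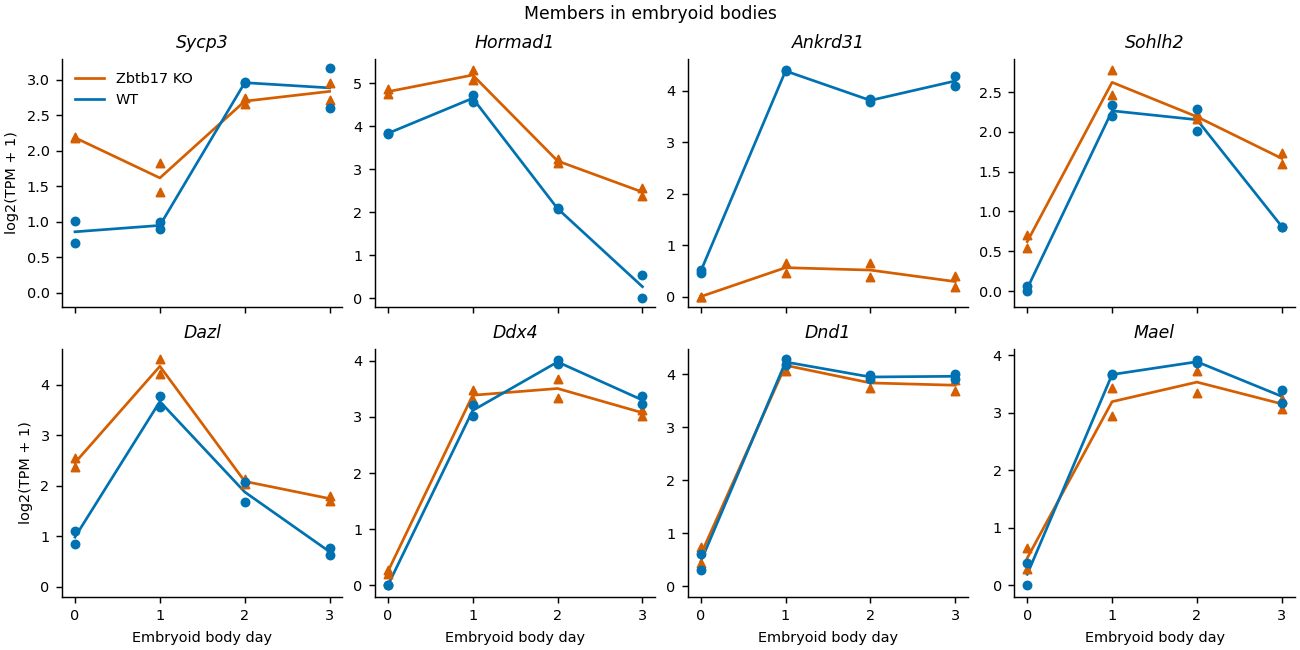
Level of each member, log2(TPM + 1), in EB on days 0 to 3, 1 point per library with lines through the means, Zbtb17 KO line (orange triangles) and WT (blue circles). Ankrd31 stays below 1 TPM in the KO line on every day, and Hormad1 and Dazl remain above WT on day 3.

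A wider set of 97 germline genes, of which 94 were measured, was counted beside the members. In control PrE against control Epi 2 of 61 tested rose and 37 fell, where 18.5% of all genes rose and 37.9% fell, with a median log2 difference of -1.24 against -0.46 over all genes. The fall included Tex19.1, a repressor of retrotransposons, at 13.7 TPM in control PrE and 281 TPM in control Epi, and Hsf2bp, a meiotic recombination factor, at 3.14 TPM in control PrE and 89.2 TPM in control Epi. Rec114, a partner of Ankrd31 in break formation, was at 1.45 TPM in control PrE and 35.7 TPM in control Epi. Sycp3 differed in the other direction. PRC2 loss in PrE raised 13 and lowered 5 of 46, where 21.4% of all genes rose and 5.18% fell, with Tex19.1 at 84.8 TPM in double-knockout PrE and 13.7 TPM in control PrE, Rec114 at 13.3 TPM in double-knockout PrE and 1.45 TPM in control PrE, and Slc25a31, an ADP/ATP carrier of male germ cells, at 13.1 TPM in double-knockout PrE and 0.674 TPM in control PrE. Over all genes that comparison had a median of 0.40, above the 0.21 of the list.

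In double-knockout Epi 7 of 60 rose and 3 fell, where 4.48% of all genes rose and 4.65% fell. Among the rises were the synaptonemal complex genes Sycp1, at 9.70 TPM against 3.10 TPM in control Epi, and Syce1, at 82.0 TPM against 42.7 TPM in control Epi, whose calls were lost in 5 and 8 of 11 settings. GSK-J4 at E5.0 lowered 13 of 53 and raised 2, where 11.7% of all genes fell and 16.6% rose, with a median of -0.49 against 0.12 over all genes. Rec114 averaged 2.29 TPM with GSK-J4 and 24.7 TPM in control Epi, and Tdrd12, a piRNA pathway factor, 1.82 TPM with GSK-J4 and 17.9 TPM in control Epi. On day 3 of EB 24 of 55 were higher and 12 lower in the Zbtb17 knockout line, where 20.9% of all genes were higher and 34.2% lower, 55.1% in all. Among them were Stag3, a meiotic cohesin subunit, at 10.5 TPM against 1.59 TPM in WT and Nanos3, a germ cell RNA regulator, at 5.51 TPM against 0.902 TPM in WT. Of 10 primordial germ cell markers, 8 were higher and 1 lower on that day.

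Zbtb17 dTAG raised 3 and lowered 4 of 49, where 7.2% of all genes rose and 4.49% fell, and Tex19.1 averaged 787 TPM with dTAG and 280 TPM in controls. In Suz12 KO of the screen 11 of 53 rose and 7 fell, where 14.5% of all genes rose and 7.42% fell, 21.9% in all, with Rhox13 at 49.5 TPM against 4.90 TPM in controls. Stra8, the retinoic acid target that opens meiosis, was at 0 TPM in batch 8 Bend3 KO and averaged 17.2 TPM in its controls.

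Group means of log2(TPM + 1) were first centred within each table, or within each batch of the screen. Genes whose centred means followed a member most closely over the 70 groups were then ranked by Pearson correlation. The ranking covered 11894 genes averaging at least 1 TPM and is a description over groups that share tables and batches. Hormad2 was closest to Hormad1 at 0.73, and Taf7l, a germ cell TFIID subunit, to Sohlh2 at 0.69, with Mov10l1, a piRNA helicase, next at 0.62. Sycp3 was closest to Mttp at 0.76, Vamp8 at 0.74 and Npl at 0.72, Ankrd31 to Spon1 at 0.68, Dazl to Zfp600 at 0.71, Mael to Fgf15 at 0.76, Ddx4 to Gse1 at 0.78 and Dnd1 to Etv5 at 0.80. Among the members the highest value was 0.66 between Dazl and Hormad1, and Sycp3 ran against Dnd1 at -0.28.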

How the data were processed

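Deposited values are TPM. The submitters' processing notes name HISAT2 2.2.1, Cufflinks, StringTie 2.2.1 and the build mm10, with no role for each. Per the labels' protocols cDNA came from about 10 to 100 cells. Sequencing depth is unknown and no counting interval can be given.

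The members and gene lists were chosen with earlier results of these data known. Without gene names of its own, the EB table of 25006 rows was read in the order of 3 other tables, with which levels correlated at 0.905 across genes, at most at 0.11 when shifted by up to 5 rows, and best unshifted in 50 of 50 windows of 500 rows. A gene was tested where the number of libraries at 1 TPM or above reached the size of the smaller group. Tests ran with limma 3.58.1 in R 4.3.3 on log2(TPM + 1), with a variance trend and Benjamini-Hochberg adjustment within each comparison at 0.05. Each table was fitted alone, with screen batches, EB days, and Epi and PrE sharing a fit. PrE control replicates 1 and 2, correlating at 0.9955, were averaged, as were the 3 Aurkb KO libraries, which were then not tested. Equal replicate numbers were checked for pairing and in no comparison did all pairs exceed 0.1. Members were named in every comparison; list genes were the up to 6 largest calls without overlap and with a higher mean of at least 5 TPM, of which a few per comparison are printed. Scripts ran in Python 3.11.15 with pandas 2.3.3 and matplotlib 3.10.9, were tested on simulated data, and drew 47 refits without single libraries. Coordinates are from GENCODE vM21 on mm10. The sequence of Dnd1 is not shown.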

Additional observations from a re-analysis of the deposited data

Results flagged for a closer look

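Differences between days in the effect of the Zbtb17 knockout line in EB were found by interaction terms in limma. The effect on day 2 minus that on day 1 was -0.93 for Sycp3, -0.74 for Ddx4 and 0.53 for Ankrd31 on the log2(TPM + 1) scale. On day 3 minus day 1 it was 0.50 for Sohlh2, -0.72 for Sycp3, 1.66 for Hormad1 and -0.50 for Ddx4. Of these 7 of 16 tested interactions, against 29.4% of all gene and day interactions, the Hormad1 one was kept in all 9 alternatives.

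The Bend3 effect in batch 8 minus that in batch 7 was -7.53 for Dazl, -6.72 for Sohlh2, -5.21 for Hormad1, -3.79 for Mael and 1.73 for Ankrd31 (log2 scale). Batch 7 has 2 controls, which differ widely in Dazl and Hormad1. Batch 8 carries a later stage in its titles than batch 7, and the part of that stage was not tested.

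The 3 libraries labelled Aurkb KO, nearly identical and outside the tests, held at least 61.0 TPM of Hormad1, against 28.2 to 33.2 TPM in the batch 1 controls. Their lowest Mael level was 22.6 TPM against 5.51 to 7.35 TPM, and their lowest Dnd1 level 6.94 TPM against 1.00 to 2.37 TPM.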

How the results depend on the processing

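Of 101 member calls, 51 held in every alternative tried and 50 were lost in at least 1. A pseudocount of 0.1 lost 27 of 101, no filter 10, quantile normalization 13, and BH adjustment over all knockouts 3 of 39. Fits of only the compared groups, or in the screen of a single batch with all its knockouts, lost 16 of 84. Without batches 7 and 8, chosen after seeing the data, 0 of 32 were lost. In WT EB on day 1 against day 0, quantile normalization turned Dazl to -0.49 and Hormad1 to -2.36 on the log2 scale. The Suz12 Eed Epi count of 3 was 1 with a pseudocount of 0.1, no filter, quantile normalization or only the compared groups. The 7 EB interactions were 3 without a filter, 2 with quantile normalization, and 4 without day 0. The replicate block, on numbers that do not pair libraries, left 3 of them and lost 6 of 69 member calls. The cause of these changes was not tested. Leaving out 1 library at a time gave 2 to 5 member calls with GSK-J4 at E5.0, 1 to 3 in Suz12 Eed Epi, 1 to 3 in Suz12 Eed PrE and 6 to 7 between control PrE and control Epi. It gave 0 to 1 for the difference between the Suz12 Eed effects and 2 to 3 with dTAG, and at E4.5 0 for GSK-J4 and for Zbtb17. In EB and the screen, a replicate number was instead left out of all perturbed or all control groups at once. This gave 12 to 14 calls in Zbtb17 KO EB, 14 to 16 in the WT EB course, 1 to 4 EB interactions and 31 to 40 in the screen. Depth cannot be judged from TPM, and members below about 1 TPM rest on few molecules.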
